A study of Gnathonemus petersii with 18 samples.

Results

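The genes described here code for 6 cation channels, trpa1, trpm2, trpm7, trpc7, trpv4 and pkd2, and were taken by exact symbol from a table of 28031 genes. The animal is the elephantnose fish, Gnathonemus petersii, which senses its surroundings with a weak electric field. RNA was sequenced from the trigeminal ganglion, the spinal cord and the cerebellum, with 6 libraries per tissue and 18 in all, from 6 individual fish according to the labels. Somatosensory neurons of the head have their cell bodies in this ganglion. The labels give no treatment, genotype, sex or age, and call the cerebellum samples brain in their titles. By its title the series asks about touch acuity and how early it arose among vertebrates. Reads were counted per gene, with 10346375 to 17587837 counts in all per library.

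Channels of the transient receptor potential (TRP) family let sodium and calcium into cells when chemicals, temperature, lipids or mechanical load open them, and polycystin-2, the product of pkd2, is a relative that works in primary cilia and the endoplasmic reticulum. In mammals TRPA1 detects irritant electrophiles in pain-sensing neurons, TRPM2 opens to ADP-ribose formed under oxidative stress and also serves warmth sensing, and TRPV4 answers to cell swelling. TRPM7 joins a magnesium-permeable pore to a kinase in 1 protein, and TRPC7 opens to diacylglycerol released by phospholipase C.

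The tissue labels were set beside marker genes. Levels are given as CPM, which is the count scaled to library size after TMM normalisation, unless TPM is written. All 11 spinal position and motor neuron markers found in the table had counts in the spinal cord, and their summed level was 0.505 to 1.39 CPM in the ganglion, 1193 to 1652 CPM in the spinal cord and 1.51 to 4.47 CPM in the cerebellum. The 10 sensory neuron markers summed to 1140.5 to 2035 CPM in the ganglion, 116 to 174 CPM in the spinal cord and 10.2 to 16.2 CPM in the cerebellum, and the 16 cerebellar neuron markers to 274 to 429 CPM, 683 to 817 CPM and 11234 to 15989 CPM in the same order. The sensory genes isl1 and isl2 had no count in the cerebellum. Ganglion replicates 2 and 5 stood apart from the other 4 ganglion libraries, with correlations of log2 counts across 16103 genes of 0.799 to 0.912, against 0.942 to 0.969 among those 4, and of 0.930 between replicates 2 and 5. Replicate 5 had the highest summed level of 8 Schwann cell markers (23646 CPM, against 5669 to 10072 CPM in the other 5), and the muscle actin gene acta1 was highest in 4 libraries (ganglion replicate 1 and spinal cord replicates 1, 3 and 5). Fold changes, calls, the order of levels and TPM shares of the 6 genes were recomputed without either set, both chosen after seeing the data.

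The 6 genes fell into different tissue patterns. The irritant channel gene trpa1 and the ADP-ribose channel gene trpm2 were highest in the ganglion, pkd2 and trpc7 were highest in the spinal cord, and trpm7 and trpv4 were not called different between any pair of tissues. Calls come from the quasi-likelihood test of edgeR: the adjusted p (Benjamini-Hochberg, over the 20691 genes tested) had to be under 0.05 and the change 2-fold or more. All 6 genes passed the filter on low counts. Of the 6, 3 were higher and none lower in the ganglion than in the cerebellum, where 29.6% of all tested genes were higher and 22.3% lower, 51.9% in either direction. Ganglion against spinal cord gave 2 higher and 2 lower, with 14.5% of all genes higher and 17.3% lower (31.7% in all). Spinal cord against cerebellum gave 4 higher and none lower, with 28.9% of all genes higher and 16.3% lower (45.2% in all). The libraries of both tissues did not overlap for 3, 4 and 4 of the 6 genes in these comparisons, against 47.9%, 29.9% and 51.9% of all genes tested. Such calls were thus common among all genes, and each tissue enters 2 of the 3 comparisons with the same libraries. In bulk tissue, fewer cells of a type and less RNA per cell cannot be told apart.

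**Figure D1:**
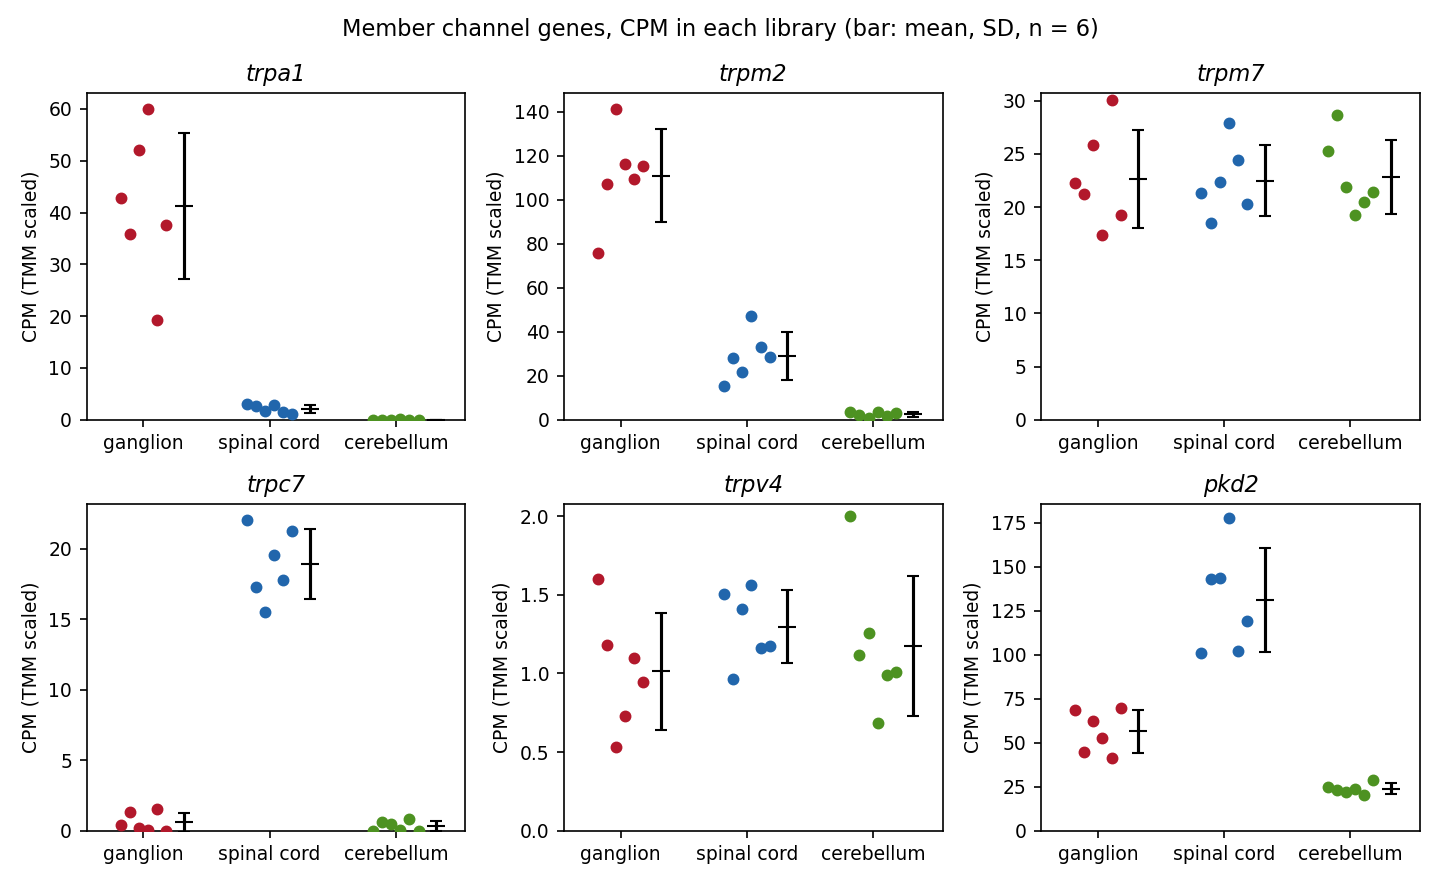
CPM of the 6 genes on linear axes from 0, each dot 1 library, in the ganglion, the spinal cord and the cerebellum; the bar beside each group is its mean with 1 SD (n = 6), cut at 0. For trpa1 and trpm2 all 6 ganglion libraries lie above all others, for trpc7 and pkd2 all 6 spinal cord libraries do, and for trpm7 and trpv4 the 3 tissues overlap.

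The gene trpa1 was a ganglion gene with a trace in the spinal cord and almost none in the cerebellum. Its ganglion level was 19.3 CPM in the lowest library, 40.2 CPM at the median and 59.99 CPM in the highest. The lowest spinal cord library had 1.09 CPM, the median was 2.15 CPM and the highest library had 3.00 CPM, from 13 to 36 counts per library. In the cerebellum 5 of 6 libraries had no count and replicate 4 had 1. The 3 tissues did not overlap. Ganglion over spinal cord, the fold change was 19.6 (log2 4.29, edgeR adjusted p = 8.84e-10). The approximate SE of this log2 value was 0.311, written as 4.29 ± 0.311 from here on. Among libraries with the same number the log2 ratio ran from 3.68 to 4.99, all 6 above 0 as the lack of overlap requires. Against the cerebellum the fitted fold depends on the value added to zero counts, so the ratio of summed and scaled counts is given: 2858 ganglion counts against 1 made 3966, with a 95% exact binomial interval of 711 to 156700 that covers counting error only. Spinal cord over cerebellum, 154 counts against 1 gave a ratio of 190 (95% counting interval 33.6 to 7554), and edgeR called the gene higher in both comparisons (adjusted p = 6.80e-13 for the ganglion and 5.73e-09 for the spinal cord). The spinal cord call ended on the log2(TPM + 1) scale, where trpa1 was at 0.93 (limma adjusted p = 0.00481), or 1.08 relative to the median of all genes.

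Within the ganglion trpa1 varied by more than counting allows: its coefficient of variation was 34.3%, against 4.58% from counting alone. The lowest library was replicate 5, with 123 counts and 19.3 CPM. That library also had the highest Schwann cell marker sum, while its sensory neuron marker sum, 1896 CPM, was the second highest of the 6. This rank depends on TMM, which raised the CPM of replicate 5 relative to its total count of 10464434. There 192 trpm7 counts made 30.1 CPM, against 19.2 CPM from 204 counts in replicate 6, with 10499011 in all. The part of tissue composition in the trpa1 level was not tested. Set beside the trpa1 counts of the spinal cord, the transcription factor gene isl1 averaged 251 ± 60.2 CPM in the ganglion, against 4.11 ± 2.501 CPM in the spinal cord, and isl2 404.5 ± 62.5 CPM against 4.25 ± 1.06 CPM (SD, n = 6 each); both genes also mark motor neurons. The gene avil, for advillin, an actin-binding protein of sensory neurons, stood at 121 ± 42.5 CPM in the ganglion, against 0.594 ± 0.341 CPM in the spinal cord and 6.31 ± 2.33 CPM in the cerebellum, so its spinal level was the lowest of the 3 tissues. The genes prph and ret, also on the sensory marker list, kept more of their ganglion level in the spinal cord. The gene prph averaged 495 ± 240.5 CPM in the ganglion, against 33.7 ± 5.60 CPM in the spinal cord, and the receptor tyrosine kinase gene ret 240.1 ± 79.2 CPM against 56.6 ± 18.3 CPM (SD, n = 6 each). The part of carried-along ganglion tissue in the spinal trpa1 counts was not tested, nor were the cells behind the spinal prph and ret levels.

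The gene trpm2 also stood highest in the ganglion, then the spinal cord, then the cerebellum. Its ganglion libraries ran from 75.7 CPM to 141 CPM with a median of 112 CPM. The spinal cord ran from 15.2 CPM to 46.9 CPM with a median of 28.2 CPM, and the cerebellum from 0.927 CPM to 3.52 CPM with a median of 2.56 CPM. No tissue overlapped another. The fold change was 3.85 for ganglion over spinal cord (log2 1.94 ± 0.273, edgeR adjusted p = 6.76e-06), 45.4 for ganglion over cerebellum (5.51 ± 0.326, edgeR adjusted p = 1.81e-11) and 11.8 for spinal cord over cerebellum (3.56 ± 0.303, edgeR adjusted p = 5.55e-09). Without overlap, all 6 libraries had to lie above those with the same number, so that count adds nothing. Relative to the mean, trpm2 in CPM was steadier in the ganglion, with a coefficient of variation of 19.0%, than in the spinal cord (37.6%) or the cerebellum (42.9%). Counting alone gives 2.87%, 5.32% and 16.4% in that order, and these spreads were not compared by a test. The gap was smaller in TPM, at 22.02 ± 7.31, 7.46 ± 2.81 and 0.727 ± 0.315 (mean and SD, n = 6, same order).

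In mammals TRPM2 is also a channel of phagocytes and microglia, so leukocyte markers were set beside it. Of 20 list entries 6 were in the table and 5 were tested, among them cd74, which codes for the invariant chain of antigen presentation. Against the cerebellum all 5 were higher in the ganglion, and all 5 were higher in the spinal cord, where 29.6% and 28.9% of all tested genes were higher. Between ganglion and spinal cord edgeR called none of the 5, against 31.7% of all genes in either direction. The summed level of the 6 was 3288 to 12798 CPM in the ganglion, 2939 to 6006 CPM in the spinal cord and 561 to 1670.1 CPM in the cerebellum. Most of this sum was cd74 alone, at 2911 to 12361, 2667 to 5417 and 512 to 1513 CPM in the same order. The macrophage gene mpeg1 was at 1 count in the ganglion, 0 in the spinal cord and 2 in the cerebellum. Ganglion replicate 5 had the highest leukocyte sum, 12798 CPM. Its trpm2 level was close to the ganglion median in CPM, at 109, but the lowest of the ganglion in TPM, at 14.0. It also had the fewest trpm2 counts there, 698. Spinal cord replicate 4 had the highest trpm2 level of its group, 46.9 CPM, and the lowest leukocyte sum, 2939 CPM. Spinal cord replicate 5 had the highest leukocyte sum of the group, 6006 CPM, and the second highest trpm2 level, 32.8 CPM. The part of leukocytes in the trpm2 difference was not tested.

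The gene trpm7 was level across the tissues. It averaged 22.7 ± 4.61 CPM in the ganglion, 22.5 ± 3.32 CPM in the spinal cord and 22.9 ± 3.48 CPM in the cerebellum (SD, n = 6 each). The ranges, 17.4 to 30.1, 18.5 to 27.9 and 19.3 to 28.6 CPM in that order of tissues, overlapped throughout. The log2 fold change was 0.01 for ganglion over spinal cord (approximate 95% interval -0.32 to 0.34), -0.01 for ganglion over cerebellum (-0.35 to 0.32) and -0.02 for spinal cord over cerebellum (-0.36 to 0.31). A 2-fold difference in either direction thus lay outside all 3 intervals. On the log2(TPM + 1) scale, where the median of all genes lay at -0.53 for ganglion over cerebellum in place of 0.07, trpm7 was at -0.57 (limma adjusted p = 0.00229), or -0.03 relative to that median.

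The gene trpc7, for a channel gated through phospholipase C, was a spinal cord gene in these libraries. It had 0 to 11 counts per ganglion library, 165 to 264 per spinal cord library and 0 to 12 per cerebellum library. The ganglion ran from 0 to 1.57 CPM with a median of 0.310 CPM, the spinal cord from 15.5 CPM to 22.03 CPM with a median of 18.7 CPM, and the cerebellum from 0 to 0.846 CPM with a median of 0.258 CPM. All spinal cord libraries lay above all others, and ganglion and cerebellum overlapped. Ganglion over spinal cord, the log2 fold change was -5.16 ± 0.724 (35.7-fold lower, edgeR adjusted p = 6.82e-06), and spinal cord over cerebellum it was 5.87 ± 0.740 (58.6-fold higher, edgeR adjusted p = 1.12e-06). Its spinal coefficient of variation, 13.2%, was the smallest of the 6 genes there. Between ganglion and cerebellum, with 30 counts against 27 in all, the gene was not called (log2 0.72 ± 0.806, approximate 95% interval -1.003 to 2.43). In the ganglion 21 of the 30 counts came from replicates 2 and 5, with 11 and 10 counts. Of the 27 cerebellum counts, 26 came from replicates 2, 3 and 5, with 7, 7 and 12. Without ganglion replicates 2 and 5 the log2 fold change for ganglion over cerebellum was -0.76, also not called, and that for ganglion over spinal cord was -6.64 in place of -5.16 (edgeR adjusted p = 5.72e-07).

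The gene trpv4 was rare everywhere, with 7 to 19 counts per ganglion library, 13 to 20 per spinal cord library and 13 to 32 per cerebellum library. Its level averaged 1.013 ± 0.373 CPM in the ganglion, 1.30 ± 0.232 CPM in the spinal cord and 1.18 ± 0.447 CPM in the cerebellum (SD, n = 6 each), and the tissues overlapped. The log2 fold changes were -0.36 for ganglion over spinal cord (approximate 95% interval -1.07 to 0.34), -0.22 for ganglion over cerebellum (-0.93 to 0.48) and 0.14 for spinal cord over cerebellum (-0.55 to 0.82). Counting alone gives a coefficient of variation of 30.9% in the ganglion, 25.3% in the spinal cord and 23.9% in the cerebellum, against 36.8%, 17.9% and 38.0% observed. In the cerebellum the spread was thus larger than counting alone gives. A difference smaller than about these intervals was not detectable at this depth and spread.

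The gene pkd2 was the most abundant of the 6 in the spinal cord and the cerebellum. Its ganglion level ran from 41.0 CPM to 69.9 CPM with a median of 57.5 CPM, the spinal cord level from 101 CPM to 178 CPM with a median of 131 CPM, and the cerebellum level from 20.2 CPM to 29.1 CPM with a median of 23.7 CPM. The 3 ranges did not overlap, with the ganglion in the middle. Ganglion over spinal cord, pkd2 was 2.32-fold lower (log2 -1.21 ± 0.167, edgeR adjusted p = 5.502e-06). Against the cerebellum it was 2.36-fold higher in the ganglion (1.24 ± 0.168, edgeR adjusted p = 2.02e-06) and 5.48-fold higher in the spinal cord (2.45 ± 0.174, edgeR adjusted p = 4.31e-10). The ganglion over cerebellum call ended on the log2(TPM + 1) scale, where pkd2 was at 0.56 (limma adjusted p = 0.0312), or 1.09 relative to the median of all genes. Summed markers of astroglia and oligodendrocytes were also highest in the spinal cord. The 7 astroglia genes summed to 863 to 1701 CPM in the ganglion, 4062 to 4976 CPM in the spinal cord and 2053 to 3293 CPM in the cerebellum. The 8 oligodendrocyte genes summed to 640 to 1045 CPM, 2447 to 2845 CPM and 690 to 992 CPM in the same order. For spinal cord over cerebellum, 3 of the 7 astroglia genes were called higher and 1 lower (median log2 0.12). Of the 8 oligodendrocyte genes 7 were called higher and 0 lower. Among all genes 28.9% were higher and 16.3% lower (median 0.08). For ganglion over spinal cord, 6 of the 7 and 6 of the 8 were lower, against 17.3% of all genes. The part of these glia in the pkd2 level was not tested.

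**Figure D2:**
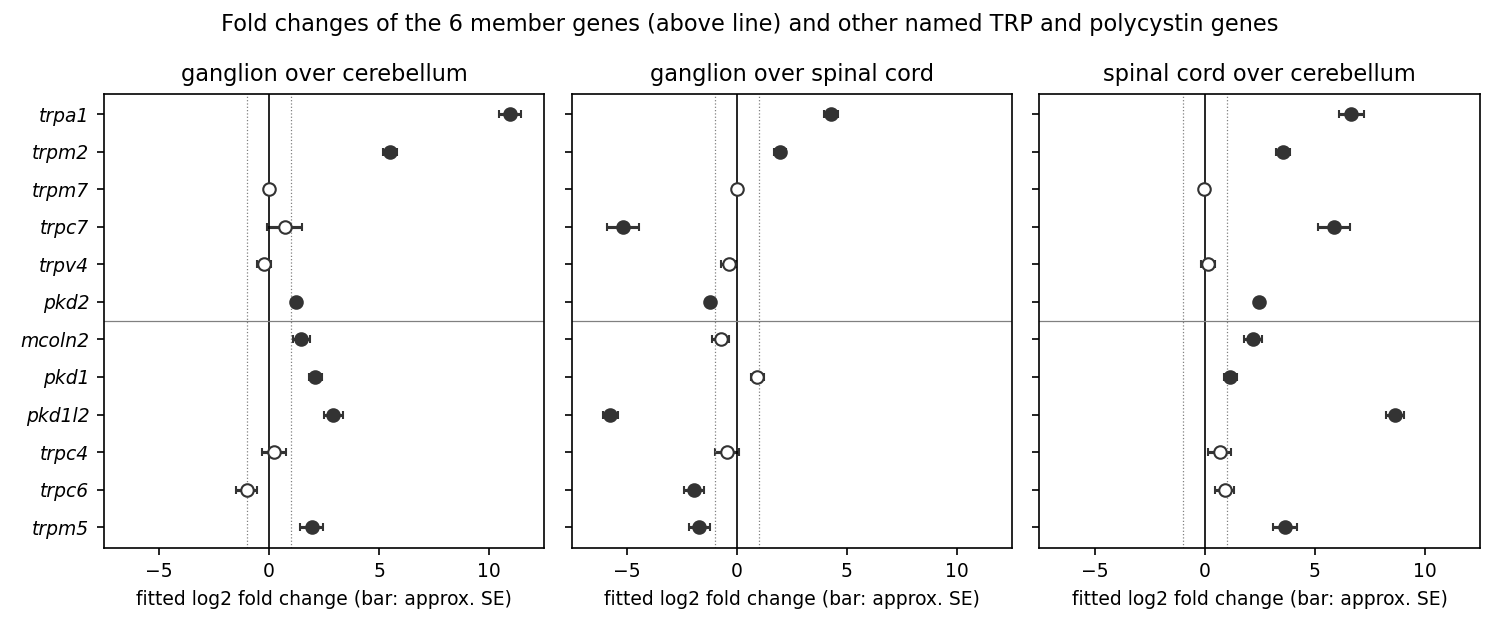
Fitted log2 fold changes with approximate SE from edgeR for the 6 genes (above the grey line) and 6 other named TRP and polycystin genes in the 3 comparisons; filled dots were called, open dots were not, and dotted lines mark a log2 change of 1. trpm7 lies at 0 in every panel, trpc7 and pkd1l2 lie left of 0 for ganglion over spinal cord and right of 0 for spinal cord over cerebellum; the trpa1 dots against the cerebellum rest on 1 cerebellum count.

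Levels of different genes were compared as TPM, which corrects for length and was scaled by the authors within each library. The longest gene model of the 6, trpm2, was 1.87 times as long as the shortest, trpv4. All pairs of the 6 genes were compared within libraries on log2(TPM + 0.1) by flipping signs exactly (a two-sided permutation test), 45 tests in all over the 3 tissues, with Benjamini-Hochberg adjustment. With 6 libraries the smallest possible p was 0.0312, which 35 pairs reached, for an adjusted p of 0.0402. A pair could thus pass only if all 6 libraries agreed in direction, and a pair that missed is not shown to be equal. In the ganglion the order was trpm2 (22.02 ± 7.31 TPM), pkd2 (20.8 ± 7.77), trpa1 (14.9 ± 6.79), trpm7 (5.26 ± 1.22), trpv4 (0.367 ± 0.154) and trpc7 (0.162 ± 0.158; SD, n = 6 for each). Between neighbours, trpm2 exceeded pkd2 by a mean log2 difference of 0.12 ± 0.466 (higher in 4 of 6 libraries, exact adjusted p = 0.589), less than its SD. The differences were larger than their SD, but missed the threshold with 5 of 6 libraries agreeing, for pkd2 over trpa1 (0.56 ± 0.464, exact adjusted p = 0.0760), trpa1 over trpm7 (1.33 ± 0.785, exact adjusted p = 0.0760) and trpv4 over trpc7 (1.02 ± 0.982, exact adjusted p = 0.111). Without ganglion replicates 2 and 5 these 3 were 0.46 (3 of 4 libraries), 1.70 and 1.58 (4 of 4 for both), and trpm2 minus pkd2 was -0.059 (2 of 4). The step down to trpv4 passed: trpm7 exceeded it by a log2 difference of 3.55 ± 0.518 (SD, n = 6, higher in 6 of 6 libraries, exact adjusted p = 0.0402).

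In spinal cord libraries pkd2 (61.4 ± 13.7 TPM) stood above all others, by a log2 difference of 2.87 ± 0.426 over trpc7, the next gene (SD, n = 6, higher in 6 of 6 libraries, exact adjusted p = 0.0402). The genes trpc7 (8.19 ± 1.13 TPM), trpm2 (7.46 ± 2.81) and trpm7 (6.97 ± 1.07) followed, separated by less than the SD: 0.21 ± 0.598 for trpc7 over trpm2 (exact adjusted p = 0.569) and 0.026 ± 0.4604 for trpm2 over trpm7 (exact adjusted p = 0.938), each in 4 of 6 libraries. Without the 3 spinal cord libraries high in acta1, trpc7 minus trpm2 was -0.052 and trpm2 minus trpm7 0.35. A step of 2.82 ± 0.550 separated trpm7 from trpa1 (0.942 ± 0.353 TPM; exact adjusted p = 0.0402), which exceeded trpv4 (0.629 ± 0.117 TPM) by 0.46 ± 0.5001 in 5 of 6 libraries (exact adjusted p = 0.144). In the cerebellum pkd2 (13.0 ± 1.83 TPM) exceeded trpm7 (8.21 ± 1.30 TPM) by 0.66 ± 0.261, and trpm7 exceeded trpm2 (0.727 ± 0.315 TPM) by 3.42 ± 0.649, each in 6 of 6 libraries (exact adjusted p = 0.0402 for both). The difference of trpm2 over trpv4 (0.663 ± 0.265 TPM) was 0.073 ± 0.784, higher in 3 of 6 libraries (exact adjusted p = 0.831), trpv4 exceeded trpc7 (0.164 ± 0.182 TPM) by 1.796 ± 1.24 (exact adjusted p = 0.0402), and trpc7 minus trpa1 (0.00447 TPM, 1 count) was 1.02 ± 1.14, higher in 3 of 6 libraries (exact adjusted p = 0.274).

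Summed over the 6 genes, the TPM was 63.5 ± 20.3 in the ganglion, 85.6 ± 16.1 in the spinal cord and 22.8 ± 2.64 in the cerebellum (SD, n = 6 each). For ganglion over spinal cord the median of all genes lay at -0.37 on the log2(TPM + 1) scale, against -0.01 with edgeR. The lower ganglion sum is thus not read as a difference between these 2 tissues. Without ganglion replicates 2 and 5 the ganglion mean rose but stayed below the spinal cord mean. The make-up of the summed TPM differed by tissue. In the ganglion trpm2 held 35.3% ± 5.90 (SD, n = 6, as for the other shares), pkd2 32.4% ± 5.497 and trpa1 22.4% ± 5.90. Of the spinal cord sum pkd2 held 71.4% ± 4.202 and no other gene more than 9.88% ± 2.51, the mean share of trpc7. In the cerebellum pkd2 held 57.1% ± 4.24 and trpm7 36.1% ± 3.94. The trpm7 share was 8.84% ± 2.74 in ganglion libraries and 8.28% ± 1.43 in spinal cord libraries, while its CPM was level. The shares are fractions of 1 sum and were not tested. Without ganglion replicates 2 and 5, pkd2 held 34.2%, trpm2 32.8% and trpa1 24.8% of the ganglion sum, so the first 2 changed places.

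**Figure D3:**
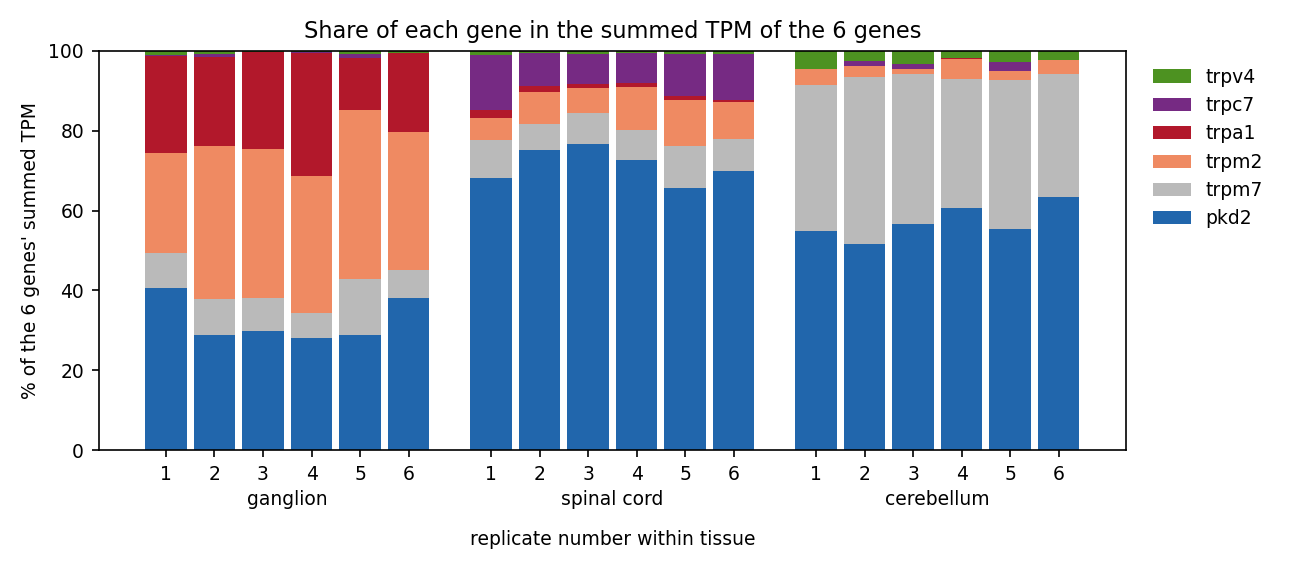
Share of each gene, in percent, in the summed TPM of the 6 genes, 1 bar per library, for 6 ganglion, 6 spinal cord and 6 cerebellum libraries. trpm2, pkd2 and trpa1 make up most of every ganglion bar, pkd2 65.7% to 76.5% of each spinal cord bar, and pkd2 with trpm7 most of every cerebellum bar.

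A list of 28 further TRP and polycystin genes matched 8 symbols of the table, and 6 of these were tested. The rest of the list was not analysed here, since 17658 genes of the table carry a locus identifier only. Of the 6, 4 were higher and none lower for ganglion over cerebellum, with a median log2 fold change of 1.71, against 0.07 over all genes, of which 29.6% were higher and 22.3% lower. For ganglion over spinal cord none was higher and 3 were lower (median -1.21, against -0.01 over all genes, of which 14.5% were higher and 17.3% lower). For spinal cord over cerebellum 4 were higher and none lower (median 1.68, against 0.08 over all genes, of which 28.9% were higher and 16.3% lower). On the log2(TPM + 1) scale, where 3 of the 6 were tested, none was higher for ganglion over cerebellum. DESeq2 called 4 higher and 1 lower there, trpc6 (-1.04, DESeq2 adjusted p = 0.0484), which edgeR put at -1.02 (edgeR adjusted p = 0.0531).

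The polycystin genes were the closest relatives of pkd2 among them. The product of pkd1 pairs with polycystin-2 in the primary cilium. The gene stood at 8.49 ± 2.30 CPM in the ganglion, 4.42 ± 1.48 CPM in the spinal cord and 1.97 ± 0.589 CPM in the cerebellum (SD, n = 6 each). Against the cerebellum it was higher in the ganglion (log2 2.10 ± 0.294, edgeR adjusted p = 3.18e-06) and in the spinal cord (1.16 ± 0.290, edgeR adjusted p = 0.00167); the second call ended on the log2(TPM + 0.1) scale, at 0.74. Between ganglion and spinal cord it was at 0.93 ± 0.283 and not called, although the libraries did not overlap; the value was just past the fold threshold, and the gene called, without ganglion replicate 3 (1.007), spinal cord replicate 1 (1.003) or spinal cord replicate 6 (1.04).

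The gene pkd1l2, for a protein related to polycystin-1 that in zebrafish is found in neurons contacting the cerebrospinal fluid, had 7 to 37 counts per ganglion library, 799 to 1297 per spinal cord library and 0 to 5 per cerebellum library. Its level was 1.51 ± 0.818 CPM in the ganglion, 81.7 ± 15.2 CPM in the spinal cord and 0.202 ± 0.146 CPM in the cerebellum (SD, n = 6 each), and the tissues did not overlap. The log2 fold change was 8.66 ± 0.406 for spinal cord over cerebellum, -5.74 ± 0.336 for ganglion over spinal cord and 2.92 ± 0.423 for ganglion over cerebellum (edgeR adjusted p = 1.97e-12, 4.44e-11 and 4.69e-06). The ganglion over cerebellum call rests on 99 counts against 17 and ended on the log2(TPM + 1) scale (0.27, limma adjusted p = 0.0815). Spinal cord pkd1l2 reached 20.1 ± 3.92 TPM, against 61.4 ± 13.7 TPM for pkd2 in the same libraries and 0.576 ± 0.195 TPM for pkd1.

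Among the other TRP genes, trpm5, a channel of taste cells in mammals, averaged 2.25 ± 1.27 CPM in the ganglion, 7.41 ± 2.18 CPM in the spinal cord and 0.602 ± 0.543 CPM in the cerebellum (SD, n = 6 each). Relative to the spinal cord it was lower in the ganglion (log2 -1.69 ± 0.491, edgeR adjusted p = 0.00718), and relative to the cerebellum higher in the spinal cord (3.64 ± 0.543, edgeR adjusted p = 9.03e-06). The endolysosomal channel gene mcoln2 stood at 9.62 ± 5.95 CPM in the ganglion, 16.2 ± 4.70 CPM in the spinal cord and 3.50 ± 1.08 CPM in the cerebellum. Its ganglion counts were spread from 17 to 225 per library. Against the cerebellum both genes were called higher in the ganglion (1.95 ± 0.532 for trpm5 and 1.47 ± 0.398 for mcoln2), and both calls ended on the log2(TPM + 1) scale, at 0.38 and 0.51. Against the spinal cord mcoln2 was at -0.73 ± 0.384 in the ganglion and not called, but was called lower on the log2(TPM + 1) scale, at -1.15 (limma adjusted p = 0.0167). The diacylglycerol-gated relative of trpc7, trpc6, was lower in the ganglion against the spinal cord (-1.93 ± 0.455, edgeR adjusted p = 0.00152), and trpc4 was called in no comparison. Too few counts were left for pkd1l1, with 8, 2 and 4 counts in ganglion, spinal cord and cerebellum, and for mcoln3, with 0, 5 and 5.

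Genes that make, gate or work beside these channels were followed as lists, described by their counts only. Unless stated, the genes named from a list are up to 2 called ones per comparison with the largest changes. They do not stand for their list. The list counts are to be read against the shares of all genes called in each comparison, given above. Those shares come from edgeR. On the log2(TPM + 1) scale all genes gave 3060 higher and 7026 lower for ganglion over cerebellum. For ganglion over spinal cord that scale gave 1200 and 4265, and for spinal cord over cerebellum 3931 and 3833. For trpa1, 10 of 27 nociceptor partner genes were tested. Of these 7 were higher and 3 lower in the ganglion than in the cerebellum, and 6 were higher and 2 lower than in the spinal cord, with medians of 2.30 and 1.30. Among all tested genes 29.6% were higher and 22.3% lower against the cerebellum, and 14.5% and 17.3% against the spinal cord. The gene pirt, for a membrane protein that regulates TRP channels of sensory neurons, had 735 ganglion counts, 2 in the spinal cord and 4 in the cerebellum. Ganglion over spinal cord, the scaled ratio was 413 (95% counting interval 114 to 3419). The prostaglandin receptor gene ptger1 was higher in the ganglion against the cerebellum by a log2 fold change of 6.63 ± 0.506. The substance P precursor gene tac1 went the other way, averaging 0.704 ± 0.501 CPM in ganglion libraries, against 94.3 ± 50.5 CPM in spinal cord libraries (SD, n = 6 each; log2 -7.05 ± 0.413). Spinal cord over cerebellum, 5 of the 10 were higher and 2 lower, among them adcyap1, the precursor of a neuropeptide (4.14 ± 0.310), and the histamine receptor gene hrh1 (-2.90 ± 0.406).

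For trpm2, 9 of 13 genes of ADP-ribose metabolism were tested. Ganglion over cerebellum gave 3 higher, where 29.6% of all tested genes were higher. Ganglion over spinal cord gave 2 higher, where 14.5% of all genes were. None of the 9 was called between spinal cord and cerebellum, where 45.2% of all genes were called. Of the 9, those with the largest changes in both ganglion comparisons were parp3, a poly(ADP-ribose) polymerase family gene (1.49 ± 0.199 against cerebellum and 1.29 ± 0.199 against spinal cord), and nudt5, for a hydrolase that splits ADP-ribose (1.08 ± 0.249 and 1.87 ± 0.255). The third gene higher against the cerebellum was nudt9, for another ADP-ribose hydrolase, at 1.04, named after its value was seen. With the replicate number as a block parp3 was the 1 gene called against the cerebellum, at 1.44, while nudt5 was at 0.94 and nudt9 at 0.997. Without ganglion replicates 2 and 5, nudt5 was at 0.48 against the cerebellum and was not called, and parp3 and nudt9 were; against the spinal cord nudt5 was then at 1.27, still called. On the log2(TPM + 1) scale none of the 9 was higher and 1 was lower against the cerebellum, and 1 was higher against the spinal cord.

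For trpc7, 16 of 23 genes of the Gq, phospholipase C and store calcium pathway were tested. Spinal cord over cerebellum, 7 were higher and 2 lower, where 28.9% and 16.3% of all tested genes were. Ganglion over spinal cord, 2 were higher and 4 lower, where 14.5% and 17.3% of all genes were. Ganglion over cerebellum, 7 were higher and 5 lower, where 29.6% and 22.3% of all genes were. On the log2(TPM + 1) scale, 14 genes of the list were tested, with 3 higher and 5 lower for ganglion over cerebellum. The 2 genes named by largest change in the ganglion comparisons, both for phospholipases, moved in opposite directions. The gene plcb4 was lower in the ganglion against the cerebellum (-4.99 ± 0.204) and against the spinal cord (-2.76 ± 0.186). In both comparisons plcd4 was higher in the ganglion (5.63 ± 0.434 and 2.75 ± 0.368). Spinal cord over cerebellum, plcb2 (3.43 ± 0.468) and plcd4 (2.88 ± 0.403) were higher.

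For trpm7, 9 of 15 magnesium transport genes were tested and at most 2 were called in 1 direction in any comparison. Ganglion over cerebellum gave 2 higher and 2 lower, ganglion over spinal cord 1 and 1, and spinal cord over cerebellum 1 higher and 2 lower. In the same order 29.6%, 14.5% and 28.9% of all tested genes were higher, and 22.3%, 17.3% and 16.3% lower. The transporter gene cnnm4 was lower in the ganglion than in both other tissues (-1.73 ± 0.449 against cerebellum and -1.83 ± 0.450 against spinal cord). The ganglion level of cnnm4 varied widely, at 8.52 ± 6.43 CPM (SD, n = 6). Its same-numbered log2 ratios against the cerebellum ran from -6.15 to -0.62. The gene magt1 was higher against the cerebellum in both ganglion (1.58 ± 0.241) and spinal cord (1.93 ± 0.242). Ganglion over spinal cord, nipa2 was higher (1.55 ± 0.250), and without ganglion replicates 2 and 5, or on the log2(TPM + 1) scale, no member of the list was. The 2 higher members against the cerebellum became 1 with the replicate number as a block or without the 4 libraries high in acta1, and none on the log2(TPM + 1) scale. Spinal cord over cerebellum, nipa1 was lower (-1.32 ± 0.182).

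For pkd2, 40 of 48 genes of the primary cilium and of polycystin biogenesis were tested, and in each comparison most were not called. Ganglion over cerebellum, where pkd2 was higher, 13 of the 40 were lower and 3 higher (median -0.68, against 0.07 over all genes). Of all tested genes 22.3% were lower and 29.6% higher there. Spinal cord over cerebellum, where pkd2 was also higher, 3 of the 40 were higher and 3 lower (median -0.05). There 28.9% of all genes were higher and 16.3% lower. Ganglion over spinal cord, none of the 40 was higher and 4 were lower (median -0.28), with 14.5% of all genes higher and 17.3% lower. With upper-quartile scaling 8 of the 40 were lower and 4 higher for ganglion over cerebellum and 7 were lower for ganglion over spinal cord. On the log2(TPM + 1) scale 21 of 38 and 10 of 38 were lower, but there the median of all genes was itself at -0.53 and -0.37. The gene invs, for the ciliary protein inversin, was higher in the spinal cord against the cerebellum (1.52 ± 0.391). The RNA-binding protein gene bicc1, whose product acts on Pkd2 mRNA in mice, averaged 39.7 ± 14.8 CPM in the ganglion, 39.7 ± 7.18 CPM in the spinal cord and 4.96 ± 1.10 CPM in the cerebellum (SD, n = 6 each; log2 3.00 ± 0.230 for both over cerebellum). The transition zone gene cc2d2a was lower in the ganglion against the cerebellum (-1.94 ± 0.165), and nphp4 (-1.21 ± 0.241) and inpp5e (-1.17 ± 0.256) were lower against the spinal cord.

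For trpv4, 14 of 23 cell volume and osmolyte genes were tested. Ganglion over cerebellum gave 6 higher and 2 lower, ganglion over spinal cord 2 higher and 3 lower, and spinal cord over cerebellum 6 higher and 2 lower, so 8, 5 and 8 of the 14 were called, where 51.9%, 31.7% and 45.2% of all genes were. The taurine transporter gene slc6a6 fell by 4.68 on the log2 scale in the ganglion against the cerebellum and by 2.02 against the spinal cord. The scramblase and channel gene ano6 was higher in the ganglion than in both (3.72 ± 0.322 and 2.05 ± 0.296). The sodium, potassium and chloride cotransporter gene slc12a2 reached 835 ± 217 CPM in the spinal cord and 85.2 ± 13.7 CPM in the cerebellum (SD, n = 6 each; log2 3.29 ± 0.215).

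**Figure D4:**
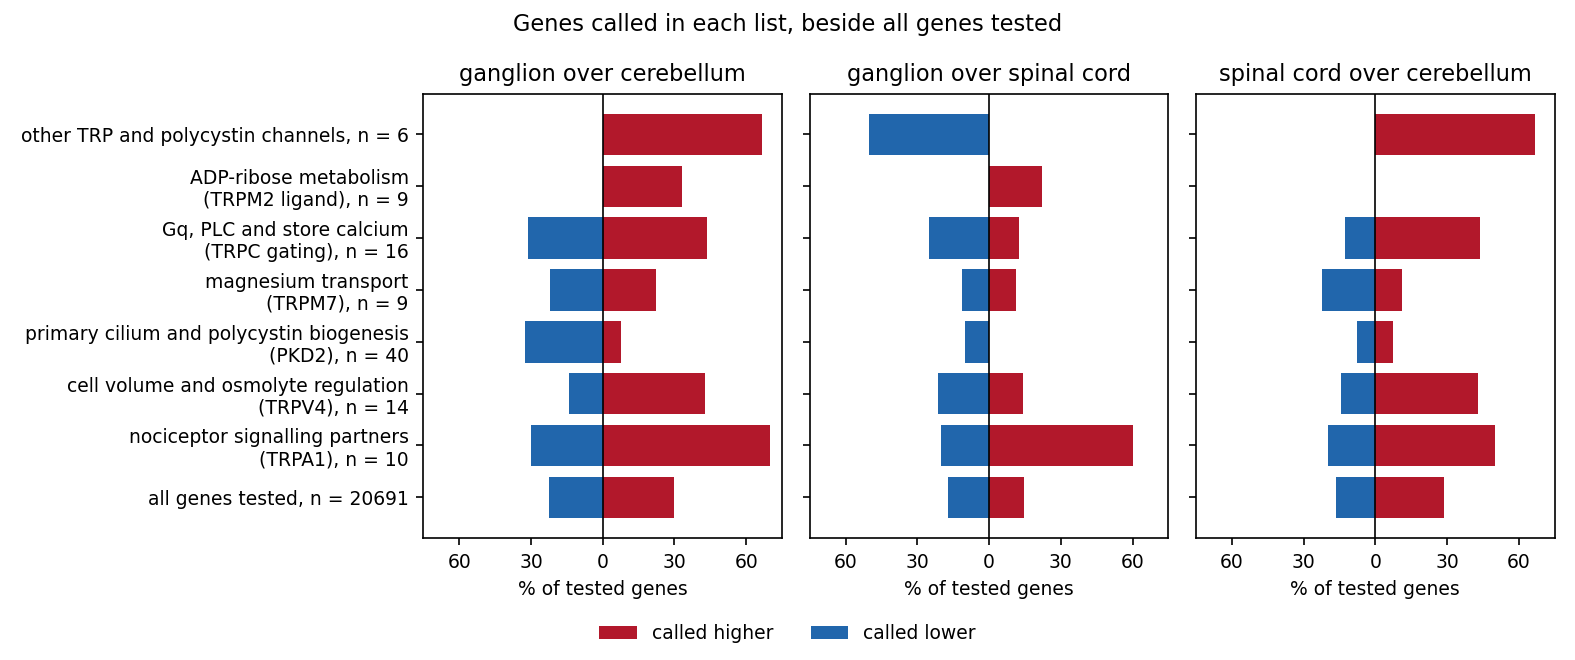
Percent of the tested genes of each list called higher (red, right of 0) or lower (blue, left of 0) in the 3 comparisons, with all 20691 tested genes in the bottom row. In the primary cilium list 13 of 40 genes were lower and 3 higher for ganglion over cerebellum, and in the nociceptor partner list 7 of 10 were higher and 3 lower.

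The genes with the most similar pattern, whatever their level, were ranked by Pearson correlation of log2 CPM over all 18 libraries among 9574 genes with a symbol. The libraries share tissues, so r mostly describes the tissue pattern. For trpa1 these were isl2 (r = 0.990), isl1 (0.986) and tbx3 (0.986), all transcription factor genes. For trpm2 they were ccdc92 (0.983), the nuclear receptor gene nr2f2 (0.982) and prph (0.980), for peripherin, an intermediate filament of peripheral neurons. For pkd2 they were aspg (0.976), ppfibp1 (0.973) and ugt8 (0.973), whose product makes the galactolipids of myelin. For trpc7 they were ccdc103 (0.962) and cfap45 (0.961), whose products belong to motile cilia, and wdr93 (0.957). Their mean ganglion levels were 0.476, 1.37 and 0.657 CPM, their spinal cord levels 5.95, 25.2 and 8.07 CPM, and their cerebellum levels 0.247, 1.19 and 0.235 CPM. The level genes had no close match: the highest r was 0.668 for trpm7, with smurf2, and 0.669 for trpv4, with ctnnbip1.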

How the data were processed

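The deposited data are 1 table of read counts per gene, not normalized, for each library, per the file headers, and the submitters' processing notes list, among other tools, STAR 2.7.7a and featureCounts of Subread 2.0.1. Its second block holds TPM that the authors scaled within libraries, as its headers say. Genome build, annotation and strand setting were not given in the sources used here. Overlapping and antisense genes, and reads shared by gene copies, could not be separated.

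Genes were kept by filterByExpr, scaled by TMM and fitted over all 18 libraries with edgeR 4.0.16 (R 4.3.3; 15 residual degrees of freedom). The approximate SE is the log2 fold change over the square root of F, and intervals use the t distribution at 95%. The code was tested on simulated data. The labels name 6 individual fish but tie no replicate number to a fish. No library was a copy of another of the same tissue, with a lowest chi-square per degree of freedom of 12.8. Pairs across tissues were not compared in this way. Counting intervals are exact binomial (Clopper-Pearson).

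Members and lists were chosen with earlier results of these data known. Named were the 6 members, all matched relatives and the 3 most similar genes per member. Up to 2 called partners were also named per list and comparison. They had the largest absolute log2 fold changes among called partners that averaged 1 or more on the log2 CPM scale. After removal of tissue means, same-numbered libraries correlated across genes at 0.124 to 0.403 between ganglion and spinal cord, 0.216 to 0.404 between spinal cord and cerebellum and 0.0759 to 0.297 between ganglion and cerebellum. Every pair of the first 2 sets was over 0.1, as were 4 of 6 pairs between ganglion and cerebellum. Libraries with different numbers were not compared, so these values do not show that a number is a fish. The main fit therefore had no replicate block, and a fit with it was run as an alternative. Alternatives were RLE and upper-quartile scaling, no filter, DESeq2 1.42.0, limma 3.58.1 on log2 TPM with 1 or 0.1 added, the replicate block, 2 tissues only, and libraries left out. The order of levels was also recomputed with 1 added to TPM.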

Additional observations from a re-analysis of the deposited data

Results flagged for a closer look

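The cerebellum value of trpa1 in replicate 4, 0.0526 CPM, stood apart from the other 5 cerebellum libraries, all at 0. It is a single count. The other 17 combinations of gene and tissue had no library so far from the rest; chance flags about 1 in 20 groups.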

How the results depend on the processing

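The calls of trpa1, trpm2, trpc7 and pkd2 kept their direction and their side of the threshold under all alternatives, with 3 exceptions. The pkd2 call for ganglion over cerebellum was lost with limma on log2(TPM + 1) and log2(TPM + 0.1), at 0.56 and 0.58, where the median of all genes moved to -0.53 and -0.51. The trpa1 call for spinal cord over cerebellum was lost with limma on log2(TPM + 1), at 0.93. The cause was not tested. Values near 0 changed sign without being called. For trpm7, ganglion over cerebellum, upper-quartile scaling gave 0.10 and 2 tissues only 0.013 (range without 1 library -0.11 to 0.054). For trpm7, ganglion over spinal cord, the values were -0.025 with upper-quartile scaling, -0.016 with no filter, -0.36 and -0.41 with limma on log2(TPM + 1) and log2(TPM + 0.1), -0.0030 with the replicate block and -0.083 without ganglion replicates 2 and 5 (range without 1 library -0.084 to 0.079). For trpm7, spinal cord over cerebellum, upper-quartile scaling gave 0.13 (range without 1 library -0.097 to 0.028). For trpv4, spinal cord over cerebellum, limma on log2(TPM + 0.1) gave -0.018 (range without 1 library -0.0061 to 0.34), and on log2(TPM + 1) trpv4 was not fitted because its mean was under 1 TPM. Without ganglion replicates 2 and 5, trpc7 for ganglion over cerebellum was at -0.76. The replicate block, single libraries left out and the 4 libraries highest in acta1 left out changed no call of the 6 genes. In the order of levels, differences left their full-data value by less than 1 SD without either set of libraries; with 5 or fewer libraries in a tissue no test could pass, and none was made.

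Over all genes, limma on log2(TPM + 1) called 3060 higher and 7026 lower for ganglion over cerebellum, and 8789 lower with 0.1 added, against 6132 and 4612 with edgeR. For ganglion over spinal cord it called 1200 and 1745 higher with 1 and 0.1 added, against 2990, and 6258 lower with 0.1 added, against 3579. For spinal cord over cerebellum 3931 were higher on log2(TPM + 1), against 5980. The higher share of calls on log2(TPM + 1) was 30.3%, 21.96% and 50.6% in the 3 comparisons, against 57.1%, 45.5% and 64.0% with edgeR. Depth, beside the spread between libraries, limits trpv4 everywhere, and depth limits trpc7 and trpa1 where they are near 0.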
